A study of Mus musculus with 38 samples.

Results

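Extra T-bet in wild-type (WT) Th1 cells was followed through 2 RNA libraries of the 14 in the series, 1 from cells given a T-bet retrovirus and 1 from cells given the control retrovirus. The comparison covered the genes listed at 3 FPKM or more (sequenced fragments per unit of transcript length and library size) in at least 1 of the 2 libraries, which was 8637 of 23700 entries. Both cultures started from sorted naive CD4 T cells of WT C57BL/6J mice, stimulated through CD3 and CD28 for 16 h with anti-IL-4, and infected with pMY-T-bet-IRES-hNGFR or with pMY-IRES-hNGFR, a retroviral vector that carries only a truncated human NGFR as a marker. They then spent 2 days in Th1 medium with IL-12 and anti-IL-4 and 3 days in IL-2 with IL-12, and RNA was taken after 2 h of restimulation through CD3 and CD28 with IL-12. One label gives 5 days of culture and another gives 7. Other groups used are STAT4 KO Th1 cells with the T-bet or the control vector, cultured the same way, and day 7 cultures without a vector, restimulated for 2 h: T-bet KO Th1, WT Th2 and WT Th1 (replicates 1 and 2). The fit over 12 libraries below also drew on STAT4 KO Th1 and STAT6 KO Th2 cells without a vector, and on WT and STAT6 KO Th2 cells with the GATA3 or the control vector, for which no restimulation is labelled. Which part of Tbx21 the T-bet KO lacks is not stated in the labels. Every group here is 1 library apart from the 2 of WT Th1 without a vector, which were not averaged, so a difference within a pair has no replicate check, and the labels do not say whether marker-positive cells were sorted before RNA was prepared. A library may therefore mix cells with and without virus, and fewer cells expressing a gene cannot be told apart from less RNA per cell.

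T-bet, the product of Tbx21, is the T-box transcription factor that defines the Th1 lineage. Together with STAT4, which carries the IL-12 signal, it opens and activates the interferon gamma gene Ifng, and it restrains the Th2 programme driven by GATA3. In CD8 T and NK cells T-bet shares its targets with its relative Eomes, and there it is known for its part in the cytotoxic genes, in chemokines and in homing receptors. WT Th1 cells already express T-bet, so this comparison asks what more of it adds.

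The libraries were those of CD4 T cells. All 7 CD4 T cell markers found of 8 sought were present (Cd3d, Cd3e, Cd3g, Cd4, Cd28, Lck and Zap70), with a summed level of 837 FPKM with T-bet vector and 852 with control vector. Most markers that define other cells were near 0 in both. The sums were 0.266 and 0.164 FPKM over 4 NK cell genes and 0.634 and 0.900 over 5 B cell genes. They were 0.387 and 0.719 over 7 myeloid genes, and 0 and 0 over 4 mast cell genes. Of the 2 CD8 T cell markers, Cd8a was at 0.0691 and 0.00926 FPKM and Cd8b1 at 1.82 and 2.53. The 4 dendritic cell genes summed to 2.41 and 3.34 FPKM, of which Zbtb46 made up 2.31 and 3.30. Cufflinks, the program that made the values, lists a 95% interval beside each. The median distance from value to upper bound was 8.53% with T-bet vector and 8.38% with control vector for genes at 3 to 10 FPKM, and 2.11% and 2.03% from 100 FPKM upwards. They reflect counting error and no variation between cultures.

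Tbx21 itself (mm9 chromosome 11, 96959321 to 96976645) stood at 245 FPKM with T-bet vector and 61.0 with control vector, a 4.01-fold difference, and the T-bet vector library had more Tbx21 than any other of the 14. In STAT4 KO cells the same vectors gave 137 and 35.1 FPKM. FPKM cannot separate transcripts of the vector from those of the cell's own gene. In a limma fit over 12 libraries with a term for the T-bet vector, Tbx21 rose by 1.91 ± 0.14 on the log2(FPKM + 1) scale (standard error, limma adjusted p = 0.00919), and both T-bet vector libraries showed that direction. It was the only gene called higher of 10775 tested (0.00928%) and 0 were called lower (0%), with 389 at an unadjusted p under 0.05. Fits that each left out 1 library gave estimates of 1.84 to 1.96. The call was lost without the WT control vector library (adjusted p = 0.0564), without the STAT4 KO library with no vector (0.0579), without the WT T-bet vector library (0.0625), without the STAT4 KO control vector library (0.166) and without the STAT4 KO T-bet vector library (0.428). Mouse Ngfr was at 0.0261 and 0 FPKM, so the human marker did not show as the mouse gene.

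Outside Tbx21, few genes differed. The log2(FPKM + 1) difference, T-bet vector minus control vector, lay within 0.5 of 0 for 95.7% of genes, with a median of -0.04 and 5th and 95th percentiles of -0.41 and 0.24. At least 2-fold higher were 37 genes (0.428%) and at least 2-fold lower were 22 (0.255%), 0.683% in all. Of the 37, 13 are small RNA genes, whose values rest on short transcripts, and 24 are named genes at a single locus. Of the 22, 5 are small RNAs and 16 are named single-locus genes. For all 24 and all 16 the Cufflinks intervals of the 2 libraries did not overlap, which was also true of 38.3% of all genes. The last named genes inside the 2-fold limit were Shisa3 (3.25 FPKM with T-bet vector and 0.959 with control vector, log2 difference 1.12) and Tgm2 (14.9 and 31.3 FPKM, -1.02). The nearest outside were Cd160 (11.7 and 5.58 FPKM, 0.95) and Lgals7 (7.29 and 15.5 FPKM, -0.99).

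**Figure D1:**
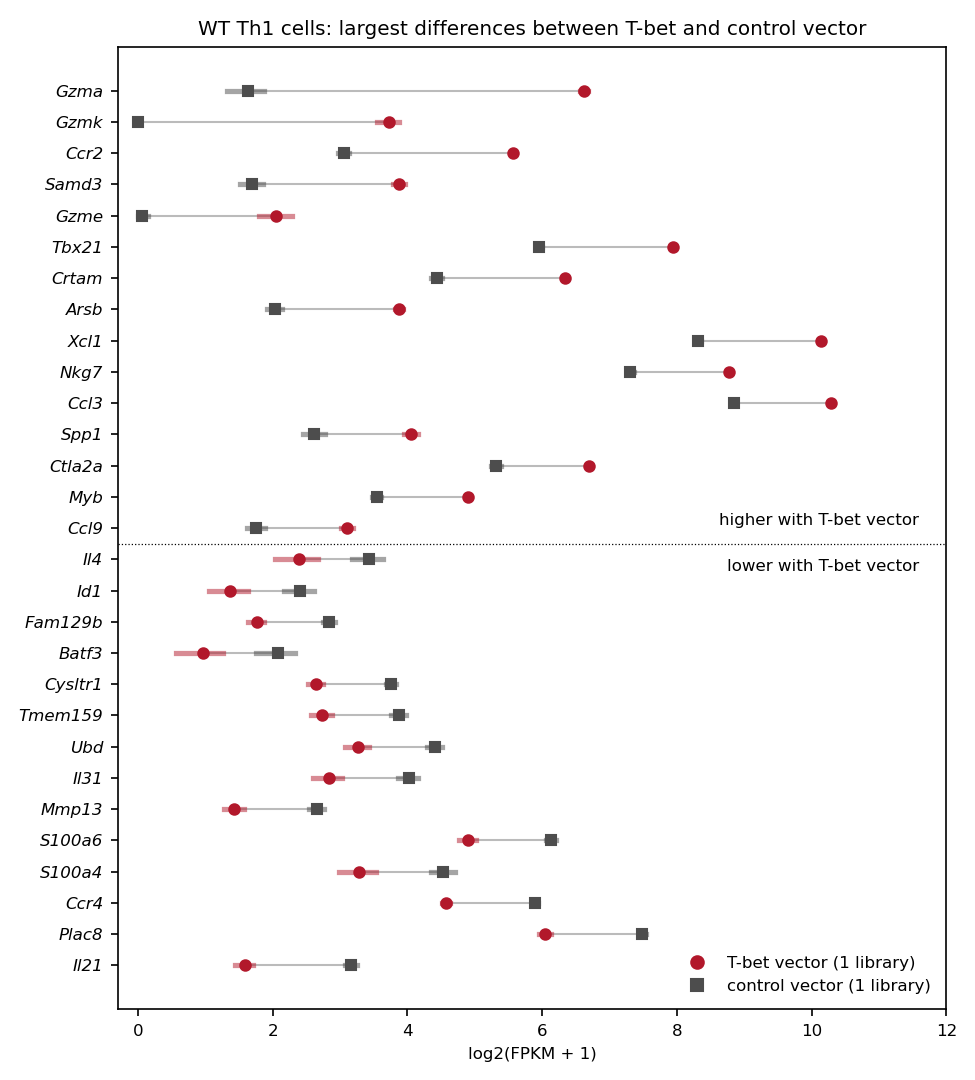
The 15 named genes furthest above 0 and 14 of the 15 furthest below 0 in WT Th1 cells, as log2(FPKM + 1) with T-bet vector (circles) and control vector (squares), 1 library each; thick bars are Cufflinks 95% intervals for counting error. Gzma lies farthest apart, at 97.4 and 2.09 FPKM, while Xcl1 and Ccl3 are the highest shown, at 1125 and 1245 FPKM with T-bet vector.

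Genes of cytotoxic granules led the higher side. Gzma, which encodes the serine protease granzyme A, stood at 97.4 FPKM with T-bet vector and 2.09 with control vector (46.6-fold). Gzmk, for granzyme K, was at 12.2 FPKM with T-bet vector and listed at 0 with control vector. Gzme was at 3.16 and 0.0376 FPKM, a level just over the limit, and granzyme genes of its cluster are similar enough that reads could be shared. Nkg7, a membrane protein of cytotoxic granules, was at 436 FPKM with T-bet vector and 158 with control vector (2.76-fold). Of the 13 cytotoxic granule genes listed, 12 reached 3 FPKM, 3 were at least 2-fold higher (Gzma, Gzmk and Nkg7), 0 lower, and the median difference was 0.25, the highest of the 16 lists measured, against -0.04 for all genes. The rest of the list did not move as a block. Granzyme B (Gzmb), the most abundant granzyme transcript in both libraries, was at 273 and 395 FPKM (log2 difference -0.53), and Gzmc at 2.15 and 3.67. Granzyme M (Gzmm) was at 5.91 and 3.36 FPKM, and the granzyme inhibitors Serpinb6b and Serpinb9 were at 185 and 112 and at 156 and 126 FPKM. Perforin (Prf1), which forms the pore that granzymes pass through, was under the limit at 2.30 FPKM with T-bet vector and 0.552 with control vector.

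Gzma differed widely among the 12 other libraries, which bears on its fold. It ran from 1.05 to 26.0 FPKM in the 6 other Th1 libraries and from 0.183 to 244 FPKM in the 6 Th2 libraries, and the highest value of all was in WT Th2 without a vector. Its fitted T-bet vector term was 4.01 ± 1.32 with limma adjusted p = 0.968. Nkg7 varied widely too, from 1.47 to 422 FPKM in the 12 other libraries. It was highest in the WT T-bet vector library, at 436 FPKM, with 422 in STAT4 KO cells with T-bet vector. Samd3, Gzmk, Arsb, Spp1 and Myb were also higher in the WT T-bet vector library than in any of the other 13.

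Chemokine genes formed the second group. Xcl1, for lymphotactin, which draws in cross-presenting dendritic cells, stood at 1125 FPKM with T-bet vector and 317 with control vector (3.55-fold). Ccl3 was at 1245 and 459.8 FPKM (2.71-fold) and Ccl4 at 2394 and 977 FPKM (2.45-fold); both encode inflammatory chemokines. Ccl9, also a chemokine, was at 7.62 and 2.38 FPKM. Xcl1, Ccl3 and Ccl4 thus differed by less in fold than Gzma but by more in FPKM. Ccl5, a chemokine and a known T-bet target, was at 51.3 FPKM with T-bet vector and 52.8 with control vector. Ccl1 was at 292 and 215 FPKM. For Ccl4 the WT T-bet vector library ranked 3 among the 14, below STAT4 KO with T-bet vector at 3213 FPKM and WT Th1 replicate 2 without a vector at 3036. T-bet KO cells without a vector had Ccl4 at 1514 FPKM.

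Of the cytokine genes in the list of Th1 cytokines and chemokines, Il21 alone passed 2-fold. Ifng was at 5199 FPKM with T-bet vector and 4074 with control vector, a log2 difference of 0.35. Il2 was at 887 and 1122 FPKM, Tnf at 207 and 234, Il3 at 401 and 674, and Csf2, for GM-CSF, at 128 and 204. Il21 was the named gene with the largest negative difference, at 2.00 FPKM with T-bet vector and 7.94 with control vector (-1.58). That list, all 16 genes of which reached 3 FPKM, held 3 genes at least 2-fold higher (Xcl1, Ccl3 and Ccl4) and 1 lower (Il21), with 6 above 0, 10 below 0 and a median of -0.12, where 59.4% of all genes were below 0.

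Receptors split by gene. Ccr2, which guides cells to inflamed tissue, stood at 46.4 FPKM with T-bet vector and 7.31 with control vector (6.35-fold). Without a vector, Ccr2 was about as high in WT Th1 replicate 1, at 42.6 FPKM, and in WT Th2, at 47.2. In WT Th1 replicate 2 it was at 14.8. Crtam, a surface receptor known from cytotoxic CD4 T cells, was at 80.1 and 20.6 FPKM (3.88-fold). Ccr4, a receptor typical of Th2 cells, was at 22.8 FPKM with T-bet vector and 58.6 with control vector (-1.33). The standard Th1 receptors were close to level: Cxcr3 was at 29.2 and 35.5 FPKM and the IL-12 receptor chain Il12rb2 at 64.5 and 60.0. St3gal6, a sialyltransferase of selectin ligands, was at 3.90 and 1.01 FPKM. Of 17 chemokine receptor and adhesion genes at 3 FPKM, 2 were at least 2-fold higher (Ccr2 and St3gal6) and 1 lower (Ccr4), with a median of -0.04 that turned to 0.02 with upper-quartile scaling or quantile normalization. None of the 12 Th1 cytokine receptor genes passed 2-fold in either direction (median -0.18). Among 12 NK-type and inhibitory receptors only Crtam did (median -0.16), with Klrc1 at 4.61 and 2.61 FPKM, Ctla4 at 168 and 306 and Cd200 at 26.0 and 50.5.

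The other named genes at least 2-fold higher were of mixed function. They included Samd3 (13.7 FPKM with T-bet vector and 2.24 with control vector), the lysosomal sulfatase Arsb (13.7 and 3.09), osteopontin (Spp1, 15.6 and 5.15), the cathepsin inhibitor Ctla2a (102 and 38.9, which has a close paralog, Ctla2b), the transcription factor Myb (28.9 and 10.7), Cldnd2 (8.87 and 2.91), the adhesion receptor Ceacam1 (3.57 and 0.944), Bend4 (4.52 and 1.45), C2cd4b (16.0 and 6.82) and BC035044 (4.23 and 1.41). Ctla2a was higher still without a vector, at 214 and 128 FPKM in the WT Th1 libraries and 286 in WT Th2. Among the partners of T-bet, Eomes was at 6.35 and 4.35 FPKM, Runx3 at 26.4 and 32.0, Ikzf3 at 23.7 and 14.2, and Stat4 at 37.1 and 41.0. Of 14 such factors at 3 FPKM, Tbx21 alone was 2-fold higher.

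Promoters of some higher genes are shown because they hold the core of the T-box motif, at varied distances from the start. RefSeq promoter windows on GRCm38.p6, from 250 bases before to 50 after a gene's start, were searched for GGTGTGA on both strands. A window was found for 21 of the 24 higher genes, and 5 of these held the motif (23.8%), namely Nkg7, Xcl1, Samd3, Gzmk and Myb. Of the 16 lower genes 10 had a window and 1, Plac8, held it (10%), against 238 of 6101 for all named genes passing the limit (3.9%). The motif of Myb lay at the far edge of its window, 250 bases before the start. Windows of Gzma, Ccr2, Ccl3, Ccl9 and Tbx21 held none, and no window was found for Crtam. A match is a string of letters and not a measured binding site. The windows of Nkg7 (chr7:43436888-43437187, plus strand, motif 13 bases before the start), Xcl1 (chr1:164935473-164935772, minus strand, 188 before), Samd3 (chr10:26229457-26229756, plus strand, 15 before, on the opposite strand) and Gzmk (chr13:113180916-113181215, minus strand, 75 before) follow, 5′ to 3′, with the motif or its reverse complement in capitals.
Nkg7: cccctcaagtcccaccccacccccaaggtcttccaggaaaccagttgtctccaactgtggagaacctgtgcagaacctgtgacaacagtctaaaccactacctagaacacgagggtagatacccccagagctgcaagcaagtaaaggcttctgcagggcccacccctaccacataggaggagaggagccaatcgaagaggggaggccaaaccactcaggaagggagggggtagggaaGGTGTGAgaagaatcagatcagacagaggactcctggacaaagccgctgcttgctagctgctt
Xcl1: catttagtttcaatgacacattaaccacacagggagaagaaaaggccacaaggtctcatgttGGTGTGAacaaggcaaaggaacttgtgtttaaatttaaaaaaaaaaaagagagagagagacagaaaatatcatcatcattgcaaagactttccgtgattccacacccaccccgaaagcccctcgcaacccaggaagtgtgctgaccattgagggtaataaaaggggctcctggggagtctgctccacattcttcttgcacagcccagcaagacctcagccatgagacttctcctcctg
Samd3: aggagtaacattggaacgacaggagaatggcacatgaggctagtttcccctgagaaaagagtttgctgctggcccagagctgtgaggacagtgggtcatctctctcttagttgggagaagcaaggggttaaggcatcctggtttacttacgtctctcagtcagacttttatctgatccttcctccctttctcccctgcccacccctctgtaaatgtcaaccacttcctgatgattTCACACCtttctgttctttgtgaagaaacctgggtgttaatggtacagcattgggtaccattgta
Gzmk: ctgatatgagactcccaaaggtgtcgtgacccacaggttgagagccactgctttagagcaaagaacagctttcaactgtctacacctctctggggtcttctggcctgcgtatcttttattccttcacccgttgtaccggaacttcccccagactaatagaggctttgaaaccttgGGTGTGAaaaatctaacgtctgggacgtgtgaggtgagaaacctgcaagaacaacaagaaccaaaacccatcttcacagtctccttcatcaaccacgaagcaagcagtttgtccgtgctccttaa

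The lower genes included 2 Th2 cytokine genes. Il4, the signature Th2 cytokine, was at 4.24 FPKM with T-bet vector and 9.75 with control vector (-1.04), and Il31, another Th2 cytokine, at 6.13 and 15.2 (-1.19). Of 12 Th2 genes at 3 FPKM these 2 were at least 2-fold lower, 9 in all were below 0, and the median was -0.52 against -0.04 for all genes. Il13 was at 22.1 and 42.0 FPKM, Il24 at 2.98 and 6.04, Ecm1 at 14.2 and 25.2, and Gata3, which encodes the factor that defines Th2 cells, at 19.9 and 24.9. The other 3 lay above 0, among them Areg at 167 and 133 FPKM and Il1rl1, the IL-33 receptor, at 20.7 and 14.2. With upper-quartile scaling or quantile normalization of the libraries, 1 Th2 gene in place of 2 was at least 2-fold lower, with medians of -0.45 and -0.46.

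All 8 Th17-listed genes at 3 FPKM were below 0, with a median of -0.53, and so were 59.4% of all genes; besides Il21, Il22 was at 2.79 FPKM with T-bet vector and 6.45 with control vector, Il17f at 6.45 and 10.4 and Ccl20 at 4.90 and 8.09. Of 12 Treg-listed genes 11 were below 0 (median -0.27), with Foxp3 at 6.39 and 9.32 FPKM. Upper-quartile scaling left 43.8% of all genes below 0, with 8 of 8 Th17-listed and 11 of 12 Treg-listed genes. Plac8 was at 65.1 and 178 FPKM (-1.44), S100a4 at 8.72 and 22.2 (-1.25) and S100a6 at 28.8 and 69.2 (-1.24), the last 2 being calcium-binding proteins. Other lower genes included the collagenase Mmp13 (1.70 and 5.30 FPKM), the ubiquitin-like modifier Ubd (8.61 and 20.2), Tmem159 (5.64 and 13.6), the leukotriene receptor Cysltr1 (5.23 and 12.5), the AP-1 family factor Batf3 (0.944 and 3.21), Fam129b (2.39 and 6.18), Id1, an inhibitor of helix-loop-helix factors (1.59 and 4.32), and the transglutaminase Tgm2.

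**Figure D2:**
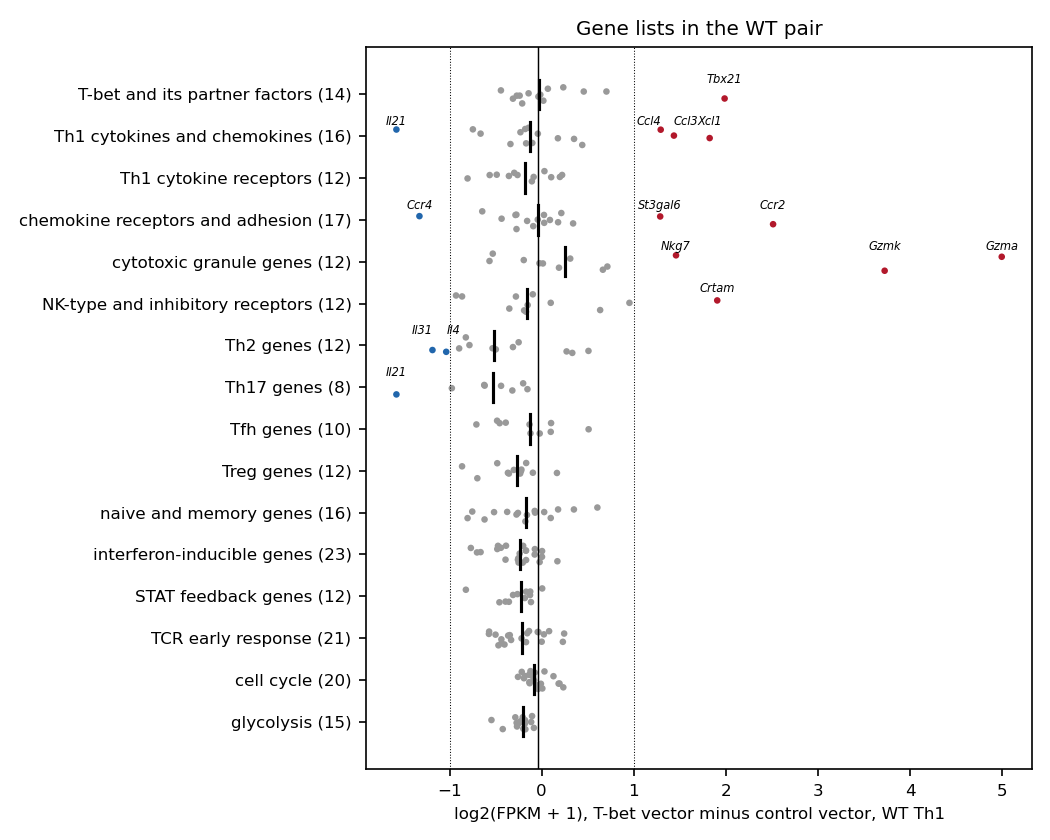
Each point is a gene of a list, placed by its log2(FPKM + 1) difference in WT Th1 cells, T-bet vector minus control vector; numbers in brackets are genes at 3 FPKM or more, thick ticks are list medians, the solid line is the median of all genes and dotted lines mark 2-fold. Points past 2-fold are named, and on the right they are mostly cytotoxic and chemokine genes.

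Several lists shifted by small amounts in 1 direction. Of 23 interferon-inducible genes 20 were below 0 and the median was -0.24, with Gbp2 at 317 FPKM with T-bet vector and 516 with control vector, Isg15 at 15.3 and 26.7 and Irf1 at 96.4 and 131. Of 12 STAT feedback genes 11 were below 0 (median -0.22), with Socs2 at 21.7 and 39.2 FPKM. All 15 glycolysis genes were below 0 (median -0.21), with the glucose transporter Slc2a3 at 34.9 and 51.3 FPKM, and 16 of 21 early response genes of T cell receptor signalling were too (median -0.22). None of these genes passed 2-fold, and 5132 of all 8637 genes were below 0. When the libraries were scaled to 1 upper quartile, 3781 of 8637 genes were below 0, and the counts were 19 of 23 interferon-inducible, 11 of 12 STAT feedback, 15 of 15 glycolysis and 14 of 21 early response genes. The 10 Tfh genes (median -0.13), 16 naive and memory genes (-0.17) and 20 cell cycle genes (-0.08) held no gene past 2-fold, and Mki67 was at 91.9 and 104 FPKM.

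The STAT4 KO pair used the same vectors in other libraries, and so gives a second reading of the genes chosen in WT cells. Of the 24 higher genes, 23 were above 0 there, as were 49.1% of all genes, and 17 were at least 2-fold higher, where 0.603% of all genes passing the limit in WT cells were. Their median difference was 1.72. The 24 include Tbx21, which the vector itself supplies; without it 22 of 23 were above 0, 16 were at least 2-fold higher and the median was 1.60. Samd3 was at 4.51 FPKM with T-bet vector and listed at 0 with control vector, Ccr2 at 5.95 and 0.529, and Crtam at 115 and 8.49. Gzma reached only 5.20 FPKM with T-bet vector, against 1.05 with control vector, and Gzmk 1.16, against 0. Of the 16 lower genes, 11 were below 0 in the STAT4 KO pair, as were 50.8% of all genes, and 3 (Ccr4, Id1 and Il4) at least 2-fold lower, where 0.985% of all genes were; the median was -0.44. Ccr4 was at 11.7 and 36.4 FPKM and Il4 at 4.80 and 12.9. S100a4 went the other way, at 21.8 and 13.3 FPKM. Taken on its own, the STAT4 KO pair had 58 genes at least 2-fold higher (0.68%) and 98 lower (1.15%). Over all entries past 2-fold and at 3 FPKM in each pair, small RNAs included, 17 higher ones were shared. They made up 45.9% of the 37 in WT and 29.3% of the 58 in STAT4 KO cells. Gzmk and Ceacam1, under 3 FPKM in STAT4 KO cells, are not among them, while the small RNAs Mir3062 and Snora28 are. Of the lower entries 3 were shared, 13.6% of 22 and 3.06% of 98.

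**Figure D3:**
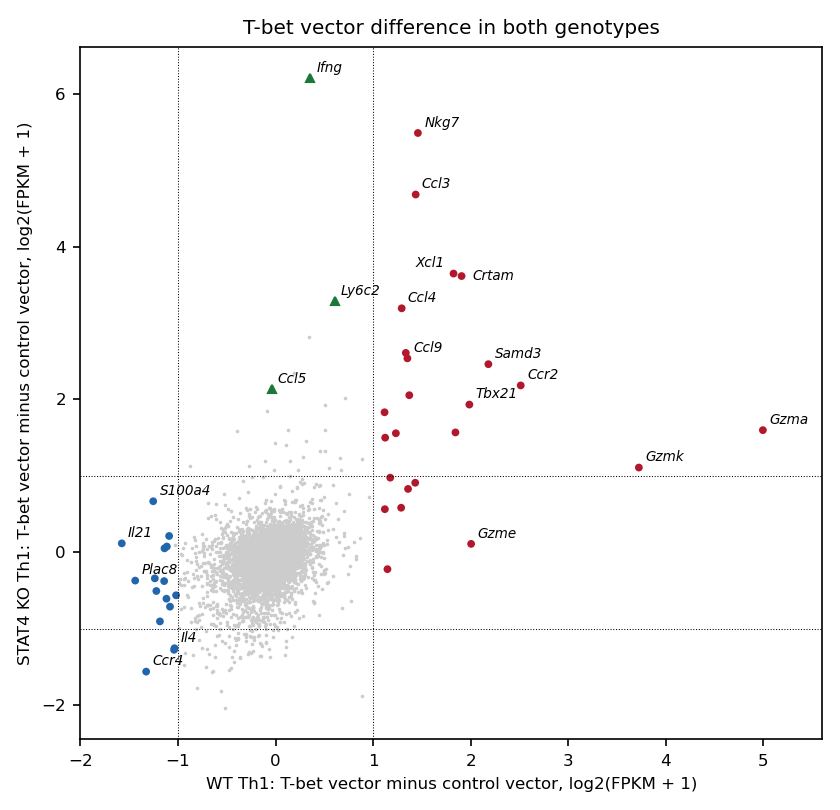
Log2(FPKM + 1) difference, T-bet vector minus control vector, in WT Th1 cells (x axis) and in STAT4 KO Th1 cells (y axis), 1 library per vector and genotype; red and blue points are named genes at least 2-fold higher and lower in WT cells, green triangles 3 other genes, grey points all other genes passing the limit except small RNAs, and dotted lines mark 2-fold. Red points lie above 0 on both axes with 1 exception, and Ifng is near 0 on the x axis only.

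Some Th1 genes differed between vectors in STAT4 KO cells and little in WT cells. Ifng was at 1739 FPKM with T-bet vector and 22.6 with control vector in STAT4 KO cells (log2 difference 6.20), against 5199 and 4074 in WT cells (0.35). Ccl5 was at 36.8 and 7.62 FPKM in STAT4 KO cells, against 51.3 and 52.8 in WT cells. For both genes the STAT4 KO control vector library held the lowest value of the 4. Nkg7 was at 422 and 8.41 FPKM in STAT4 KO cells, against 436 and 158 in WT cells, so the levels with T-bet vector were close and those with control vector were not. The limma interaction of STAT4 KO with the T-bet vector, which sets the STAT4 KO effect under T-bet vector against that in cultures with no vector or the control vector, was 4.10 ± 0.30 for Nkg7 (limma adjusted p = 0.0292). It was 1 of 2 entries called of 10775 (0.0186%), with 163 at an unadjusted p under 0.05. The other was the small RNA Mir365-2. The estimate for Ifng was 5.68 ± 0.50 (limma adjusted p = 0.0564) and for Ccl3 3.42 ± 0.37 (0.161), neither of them called. The fit had 3 residual degrees of freedom and took the lone T-bet vector libraries to vary like the rest. In simulated data it called 0 of 100 genes whose interaction was 1 and 44 of 100 where it was 2 on the log2 scale, among 10775 genes, with 5 unchanged genes called. The call of Nkg7 was lost in 7 of 10 fits that each left out 1 library, with estimates of 3.94 to 4.25 and limma adjusted p of 0.0267 to 0.23 over the 10.

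**Figure D4:**
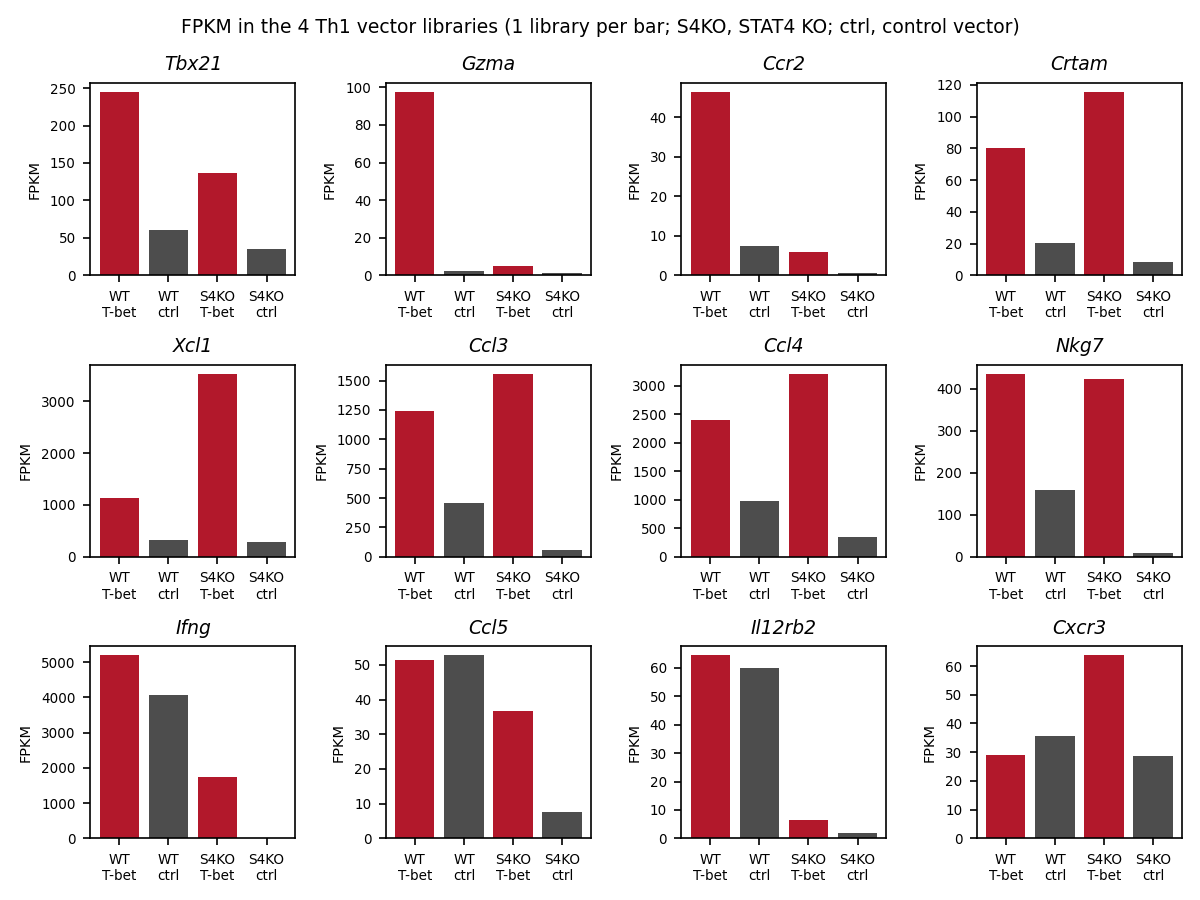
FPKM of 12 genes in the 4 Th1 vector libraries, 1 library per bar, with the T-bet vector bar left of the control vector bar in each genotype and each vertical axis starting at 0 with its own scale. Gzma and Ccr2 are highest in WT cells with T-bet vector, and Ifng is high in both WT libraries and near 0 in STAT4 KO cells with control vector.

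Loss of T-bet gives the opposite perturbation in libraries outside both vector pairs. T-bet KO and WT replicate 2 were set against each other, since small RNAs took 22.6% and 21.1% of their FPKM and 4.61% to 7.82% of that of the other 12 libraries. Tbx21 was at 4.18 FPKM in T-bet KO and 153 in WT replicate 2. Of the 24 genes higher with T-bet vector, 19 were below 0 in T-bet KO, as were 50.8% of all genes, and 12 were at least 2-fold lower, where 1.38% of all genes passing the limit were; 0 were 2-fold higher and the median difference was -0.98. Without Tbx21, the deleted gene, 18 of 23 were below 0, 11 were at least 2-fold lower and the median was -0.97. Xcl1 was at 7.30 FPKM in T-bet KO and 164 in WT, Nkg7 at 9.50 and 179, Gzma at 2.08 and 23.3, Cldnd2 at 0.431 and 23.6 and Ccl3 at 295 and 1079. Ccr2 was not lower, at 21.8 FPKM in T-bet KO and 14.8 in WT, and neither was Myb, at 2.25 and 1.94. Of the 16 lower genes, 14 were above 0 in T-bet KO, as were 49.2% of all genes, and 9 at least 2-fold higher, where 1.66% of all genes were, with a median of 1.04. Il4 was at 60.4 FPKM in T-bet KO and 3.22 in WT, Batf3 at 84.9 and 17.6, Ubd at 15.1 and 0.491, Il31 at 125 and 34.8 and Il21 at 158 and 51.3. The other WT Th1 library, replicate 1, held more Ubd, at 11.98 FPKM, more Ccr2, at 42.6, and less Batf3, at 1.69. Plac8 was below 0 in both comparisons, at 519 and 712 FPKM here.

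**Figure D5:**
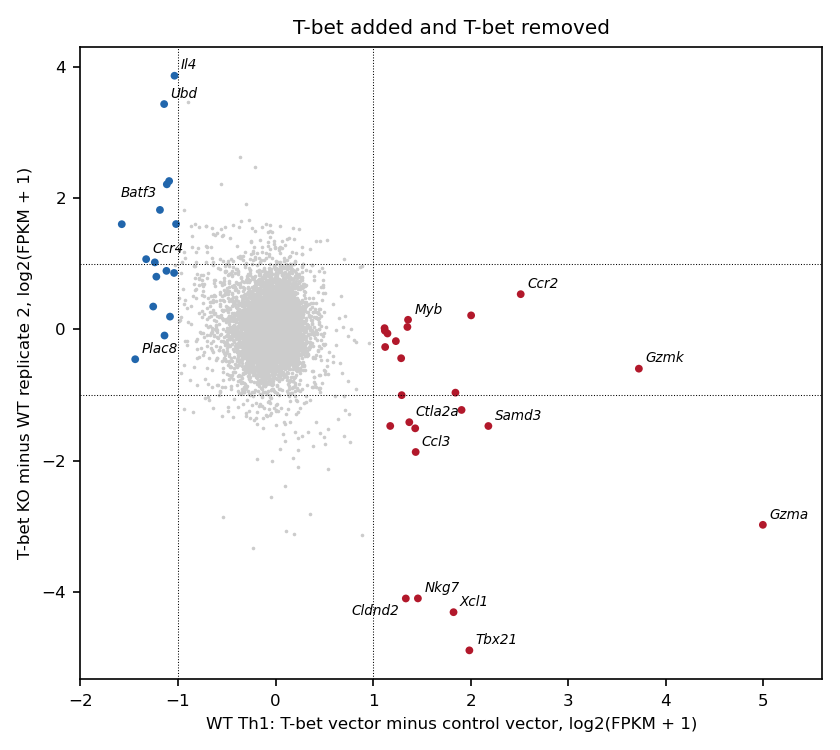
Log2(FPKM + 1) difference in WT Th1 cells, T-bet vector minus control vector (x axis), and of T-bet KO minus WT replicate 2 (y axis), 1 library a side; red and blue points are named genes at least 2-fold higher and lower with T-bet vector, grey points the other genes passing the limit except small RNAs, and dotted lines mark 2-fold. Tbx21, Xcl1, Nkg7, Cldnd2 and Gzma lie at the lower right and Il4 and Ubd at the upper left.

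Not every gene lower in T-bet KO was higher with T-bet vector. Ifng was at 455 FPKM in T-bet KO and 3212 in WT replicate 2, Cxcr3 at 64.4 and 155, Il12rb2 at 34.0 and 84.9 and the cathepsin Ctsw at 16.4 and 149.9, while with T-bet vector Ctsw was at 40.8 FPKM and with control vector at 35.7. Gata3 was at 74.9 FPKM in T-bet KO and 32.7 in WT.

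The genes were also placed on the Th2 to Th1 axis with libraries without a vector. Of the 24 genes higher with T-bet vector, 10 were at least 2-fold lower in WT Th2 than in WT Th1 replicate 1, where 6.93% of all genes passing the limit were, and 2 (Gzma and Spp1) were at least 2-fold higher. Of the 16 lower genes, 8 were at least 2-fold higher in WT Th2 (among them Ccr4, Cysltr1, Id1, Il31, Il4, S100a4 and S100a6), where 7.74% of all genes were, and 4 at least 2-fold lower (Il21, Plac8, Tmem159 and Ubd). The genes lower with T-bet vector thus held both Th2-high and Th1-high genes.

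No T-bet vector term besides that of Tbx21 was called. The estimates were large but loose for Gzma, given above, for Nkg7 at 3.39 ± 0.82 and for Ccl3 at 2.99 ± 0.67 (limma adjusted p = 0.968 each). Among terms with smaller standard errors, Crtam had 2.76 ± 0.38 (limma adjusted p = 0.115), Ccr2 2.54 ± 0.34 and Samd3 2.21 ± 0.27 (0.0942 each), Ccl9 2.13 ± 0.32 (0.168) and Arsb 1.55 ± 0.20 (0.0942). Each of these 5 was higher with T-bet vector in both genotypes. In simulated data this fit called 75 of 100 genes changed by 1 and 97 of 100 changed by 2 on the log2 scale, among 10775 genes, with 4 unchanged genes called. In the libraries themselves none of the terms in this paragraph was called, though all but that of Arsb were above 2. Some genes differed by unlike amounts in the genotypes, such as Nkg7, by 1.46 in WT and 5.49 in STAT4 KO cells. How often the fit calls such genes was not tested. Ccr2, by 2.51 in WT and 2.18 in STAT4 KO cells, and Samd3, by 2.18 and 2.46, differed by similar amounts and were not called either. A gene left uncalled is therefore not shown to be unchanged.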

How the data were processed

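RNA of CD4 T cells was sequenced as single reads of 100 cycles. The authors deposited gene tables of FPKM values made with Cufflinks, per the file headers. The submitters' processing notes name TopHat, Cufflinks and the mm9 build, without versions. The tables hold no read counts, so depth is unknown and is seen only through the Cufflinks intervals. Tables were joined on symbol and locus. Differences are on log2(FPKM + 1), which understates those of low genes. Entries needed 3 FPKM in either library and Cufflinks status OK in both, which left out 51 entries. With 1 library a group no test was made within a pair. The T-bet vector term came from limma 3.58.1 in R 4.3.3 over 12 libraries and genes at 1 FPKM in 2 libraries, with terms for lineage, vector, STAT4 KO, STAT6 KO, T-bet vector and GATA3 vector (5 residual degrees of freedom), Benjamini-Hochberg adjusted, threshold 0.05. T-bet KO and WT Th1 replicate 2 stayed out, since they stood apart. An interaction fit added STAT4 KO with T-bet vector and STAT6 KO with GATA3 vector. Both fits were tested on simulated data that followed the fitted terms apart from normal noise. The labels do not tell separate cultures apart, and each of the 12 libraries fitted is a group of its own. The p-values therefore rest on departures of the libraries from the sum of the fitted terms. Such departures may be technical or may be real differences between groups, and no spread between replicates enters them. Members and gene lists were chosen with earlier results of these data known. Named genes are Tbx21, the 15 largest differences each way among single-locus genes that are not small RNA, predicted or mitochondrial entries, list members and genes called in the fit; the other genes past 2-fold and those at its edge were added after their values were seen. Of 17 lists 1 was the marker Ngfr. A few genes are not reported here.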

Additional observations from a re-analysis of the deposited data

Results flagged for a closer look

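Nkg7 differed between genotypes in its T-bet vector difference, by 4.10 on the log2(FPKM + 1) scale, STAT4 KO minus WT, in the limma interaction (adjusted p = 0.0292). The STAT4 KO control vector library, at 8.41 FPKM, was the low value of the 4. Mir365-2, a microRNA gene, differed by -11.5 in the same test (adjusted p = 3.76e-05), with 0 FPKM with T-bet vector and 45.5 with control vector in STAT4 KO cells, against 57.9 and 0 in WT cells. Each pair thus held a library at 0. The Cufflinks interval of Mir365-2 in the WT T-bet vector library ran from 0 to 173.7 FPKM, so that value cannot be told from 0. Libraries here were made from total RNA with 1 library per group, and no group had the 4 samples needed to look for an outlying one.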

How the results depend on the processing

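Of the 37 genes at least 2-fold higher, the count was 28 to 44 over other pseudocounts, filters and scalings, 80 at 1.5-fold and 16 at 3-fold. The count of 22 lower genes was less steady: 43 with a pseudocount of 0.1, 7 with a pseudocount of 5, 13 with at least 10 FPKM in either library, 184 at 1.5-fold and 4 at 3-fold. A pseudocount of 0.1 gave 44 genes higher, and one of 5 gave 28. With a pseudocount of 5, 7 of 15 higher genes were at least 2-fold lower in T-bet KO in place of 12 of 24, an alternative chosen after seeing the data. Upper-quartile scaling moved the median of all genes to 0.02. The T-bet vector term called 2 genes higher with a pseudocount of 5, 4 with no filter on low values, 0 with all 14 libraries, 0 with the 8 vector libraries and 4 with the 4 Th1 vector libraries. Leaving out 1 library in turn gave 0 to 4 higher and 0 to 0 lower. The interaction called 1 entry with no filter and 1 with all 14 libraries, and 1 to 4 with 1 library left out. It could not be fitted without either T-bet vector library or with the 8 vector libraries alone. The estimate for Tbx21 was 1.80 to 1.96 in all fits run. The 30 largest gene differences kept their sign under the pseudocounts and scalings run. No paired analysis was possible because each group compared holds 1 library and the groups share no replicate number beyond 1. With 1 library a group, depth limits genes near 3 FPKM most, and variation between cultures was not measured.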

Other observations

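Some of the genes that differed lie next to each other. Of the 24 named genes at least 2-fold higher with T-bet vector, 7 had another of the set within 100 kb (29.2%), against 30 of 8019 named genes passing the limit that had one of the 24 within that distance (0.374%). These are Ccl3, Ccl4 and Ccl9 on mm9 chromosome 11, Gzma and Gzmk on chromosome 13, and Nkg7 and Cldnd2 on chromosome 7, where 2570 bases lie between the 2 genes. S100a4 and S100a6 on chromosome 3, both lower with T-bet vector, are 6849 bases apart. Reads of neighbours so close cannot be assigned by strand here, since the labels do not say that the libraries kept it.

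Small RNA entries made up 13 of the 37 higher and 5 of the 22 lower genes. The largest, Mir3062, was listed at 146 FPKM with T-bet vector and 0 with control vector, with a Cufflinks interval of 0 to 560.4 in the T-bet vector library. Small RNAs took 5.91% of all FPKM with T-bet vector and 4.61% with control vector.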
